A study of Mus musculus with 6 samples.

Results

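Granzymes A, B, C, D, E, F, G and K (Gzma, Gzmb, Gzmc, Gzmd, Gzme, Gzmf, Gzmg and Gzmk) and perforin (Prf1) were examined in H22 tumours from mice given luteolin, a plant flavonoid. The genes were chosen by symbol, and 9 of 9 were found among the 21720 symbols of the deposited table. The tumours grew from H22 cells, a mouse hepatocellular carcinoma line, placed under the skin of female wild-type BALB/c mice aged 6 to 8 weeks. The control group received 0.5% carboxymethyl cellulose sodium and the luteolin group 200 mg/kg luteolin, both by gavage in 0.2 mL each day for 21 days, starting from a tumour volume of about 50 mm3. Each group gave 3 RNA-seq libraries of whole tumour, named control replicates 1 to 3 and luteolin replicates 1 to 3. The labels do not say that each library came from a separate mouse, so the p values measure the spread between these libraries. Since the RNA is from whole tumour, more cells of a type and more RNA per cell cannot be told apart.

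Granzymes are serine proteases that cytotoxic T cells and natural killer (NK) cells store in granules together with perforin. On contact with a target cell the granules are released, perforin forms pores in the target membrane, and granzymes enter and cleave proteins of the target. Granzyme B cleaves after aspartate and sets off apoptosis, in part through BID, and granzyme A is a tryptase. Granzymes C to G are found in rodents, and their genes come on in long-stimulated T cells and in some NK cells. Granzyme K is a tryptase of less differentiated effector and memory CD8+ T cells.

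In the mouse reference GRCm38, on which the positions below were taken from GENCODE M21, 6 of the genes lie in 1 cluster on the minus strand of chromosome 14, from 56117626 to 56262260 (144.6 kb), in the order Gzme, Gzmd, Gzmg, Gzmf, Gzmc and Gzmb. Chymase, mast-cell protease and cathepsin G genes lie next to them. Gzma and Gzmk are on chromosome 13 (113093825 to 113100981 and 113171608 to 113225908), and Prf1 is on chromosome 10 (61297833 to 61304680). Gzmc to Gzmg are close copies. Coding sequences within that group were 71.1% to 93.3% identical over 10 pairs, with Gzmd and Gzme the closest, while Gzmb was 65.1% to 75.6% identical to them. In the 250 bases before the transcription start the same 5 genes were 70.2% to 94.8% identical, and Gzmb was 43.4% to 47.5% identical to them, within the 41.4% to 48.5% found for all other pairs.

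The 140 bases before the RefSeq start of 7 of the genes are shown because Gzmc to Gzmg share their upstream sequence yet differ in a motif, and because Gzmb, Prf1 and Gzmk do not share it. The sequences are of the reference strain C57BL/6J (GRCm38.p6), not of BALB/c. Capitals mark TGTGGT, the letters of a RUNX site, and TGACGT, the core of a cyclic-AMP response element (CRE), found on either strand. The windows are chr14:56262335-56262474 for Gzmb, chr14:56234658-56234797 for Gzmc, chr14:56159580-56159719 for Gzmg, chr14:56132594-56132733 for Gzmd and chr14:56120626-56120765 for Gzme. They are chr10:61297696-61297835 for Prf1 and chr13:113180966-113181105 for Gzmk. All but Prf1 read from the minus strand. The RefSeq starts of Gzmb, Gzmk and Prf1 differ from the gene ends of GENCODE given above, and those of Gzmc and Gzmd also differ from their GENCODE gene ends.
Gzmb: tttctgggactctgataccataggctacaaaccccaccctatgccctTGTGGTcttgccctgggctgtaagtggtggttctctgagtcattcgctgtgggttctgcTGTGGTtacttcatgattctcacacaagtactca
Gzmc: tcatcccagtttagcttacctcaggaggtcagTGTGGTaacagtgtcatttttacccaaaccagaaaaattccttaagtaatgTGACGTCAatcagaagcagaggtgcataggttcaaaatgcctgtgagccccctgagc
Gzmg: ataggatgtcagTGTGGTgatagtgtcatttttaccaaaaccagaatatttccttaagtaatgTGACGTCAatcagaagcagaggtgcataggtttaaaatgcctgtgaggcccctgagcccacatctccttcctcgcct
Gzmd: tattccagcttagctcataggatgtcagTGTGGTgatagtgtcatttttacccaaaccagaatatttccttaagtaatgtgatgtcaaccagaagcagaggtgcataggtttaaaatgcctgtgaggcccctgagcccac
Gzme: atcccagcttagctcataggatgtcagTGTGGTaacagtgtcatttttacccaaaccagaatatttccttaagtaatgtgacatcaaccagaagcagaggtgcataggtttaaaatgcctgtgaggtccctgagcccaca
Prf1: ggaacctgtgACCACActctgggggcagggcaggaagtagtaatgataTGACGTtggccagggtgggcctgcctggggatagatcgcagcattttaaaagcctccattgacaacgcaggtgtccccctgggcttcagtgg
Gzmk: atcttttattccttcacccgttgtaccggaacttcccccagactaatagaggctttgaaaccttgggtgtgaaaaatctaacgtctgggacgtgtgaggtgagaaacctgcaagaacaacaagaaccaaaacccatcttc

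In the window of 250 bases before to 50 after the start, TGTGGT was present for 8 of the 9 genes, all but Gzmk, and in 16.8% of 32851 mouse promoter windows of that length. The full CRE, TGACGTCA, was present for Gzmc, Gzmf and Gzmg, against 1.79% of all windows, and not for Gzmd or Gzme. Its core TGACGT, which the full site holds on both strands, was also found for Prf1 and for Gzmb, there after the start and so outside the stretch shown, and in 7.51% of all windows. Of the other letters searched on both strands, the ETS core AGGAAG was in 6 of the 9 windows (all windows, 35.4%). The AP-1 site TGANTCA and the STAT site TTCNNNGAA were found for Gzmb alone (7.81% and 8.30%), and the T-box core GGTGTGA for Gzmk alone (3.98%). Gzmc to Gzmg, whose upstream sequences are close copies, are all among the genes with TGTGGT and with AGGAAG, and only they hold the full CRE. Their matches are therefore not independent of each other, and the shares of all windows are no test of them. A match describes the sequence and does not show a bound site.

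The table holds estimated counts. Total counts ranged from 61081637 to 80442954 per library, and levels are given as CPM, counts scaled to the normalized library total. Where 3 values are given for a group, they are those of replicates 1, 2 and 3 in that order. Many low values are multiples of 4 (44.8% of the values from 1 to 40), for a reason that was not tested, which makes low levels coarser than single counts. Luteolin replicate 2 stood apart: the keratin gene Krt14, a skin keratinocyte marker, had 2439 CPM there, 157 and 4.33 CPM in luteolin replicates 1 and 3, and 0 counts in each control library. The summed keratinocyte list was 10472 CPM in luteolin replicate 2 and 159 to 582 CPM in the other luteolin libraries, against 177 to 190 CPM in the control libraries. Most of the control sums came from Dsp (172 to 186 CPM). Krt5 had 50.4, 1883 and 4.74 CPM in the luteolin libraries and 0 counts in each control library. Without luteolin replicate 2, 8 of 9 tested keratinocyte genes were still higher at the study's threshold (all genes, 7.52%). Each of the 9 genes also had its highest level in luteolin replicate 2, as had 34.0% of all tested genes. The part that skin tissue plays in these levels was not tested. The main results are given with and without luteolin replicate 2, but leaving it out does not remove the skin markers. Of the hepatocyte and hepatoma markers, Afp (43.4 to 66.7 CPM in the control libraries, 32.7 to 41.8 in the luteolin libraries) and Trf (294 to 347 and 122 to 283 CPM) were lower in every luteolin library, with log2 fold changes of -0.58 and -0.86 that did not reach the study's threshold. Gpc3, a hepatoma surface proteoglycan, was higher, with 0.633 to 1.30 and 3.13 to 9.34 CPM (log2 fold change 2.73). The part of tumour-cell content in the granzyme levels was not tested. Alb ranged from 0.868 to 133 CPM, and Foxa2 was at 0 counts in all libraries.

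All 9 genes passed the filter on low counts. The study's threshold was an unadjusted p below 0.05 with a more than 2-fold change. With edgeR's p, 8 of the 9 were higher in the luteolin group and 0 lower, where 11.3% of the 14963 genes tested were higher and 1.52% lower. The gene that did not reach the threshold was Gzmk. After Benjamini-Hochberg adjustment of p in edgeR's quasi-likelihood test, 1 of the 9 passed 0.05 as higher, Gzmb, and 0 as lower (all genes, 1.34% and 0.187%). DESeq2 called 7 of the 9 higher at that level, all but Gzme and Gzmk, and 0 lower (all genes, 9.59% and 2.58%), and 8 of the 9 higher and 0 lower at the study's threshold (all genes, 11.5% and 1.61%). For 7 of the 9 genes each luteolin library lay above each control library (all genes, 15.9%), the exceptions being Gzme and Gzmk, and for 0 of the 9 did each lie below (all genes, 12.8%). The median log2 fold change of the 9 was 2.90, and that of all genes tested was -0.0073. Without luteolin replicate 2 the median was 2.31, and 7 of the 9 genes reached the study's threshold, where 7.52% of all genes did, with Gzmb still the 1 member past an adjusted p of 0.05 in edgeR (all genes, 1.82%). In that comparison 0 members were lower by either measure (all genes, 1.84% and 0.238%).

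**Figure D1:**
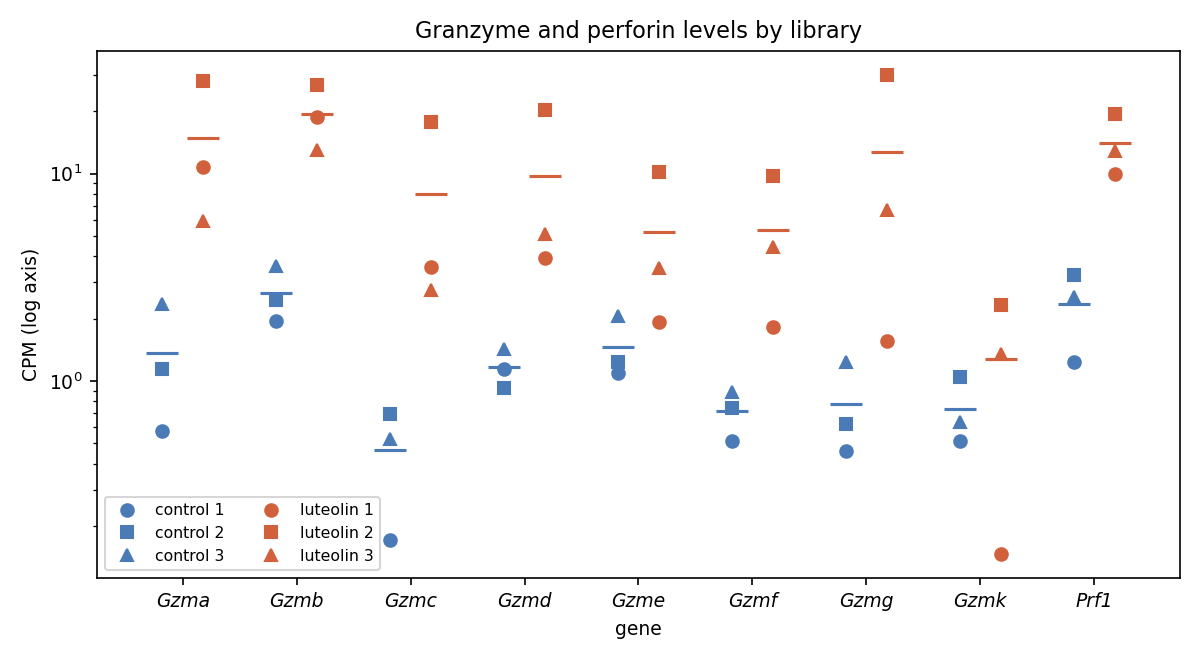
CPM of each gene in each library on a log axis, with control libraries in blue, luteolin libraries in orange and a horizontal bar at each group mean (n = 3 libraries). Luteolin replicate 2 (orange squares) was the highest library for all 9 genes, and the groups overlapped for Gzme and Gzmk.

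Gzmb, the main apoptosis-inducing granzyme, had 1.95, 2.46 and 3.60 CPM in the control libraries and 18.7, 26.7 and 12.9 CPM in the luteolin libraries. The lowest luteolin library was 3.59-fold above the highest control library, so the groups did not overlap. The means were 19.4 ± 6.91 and 2.67 ± 0.846 CPM (SD, n = 3 each), and the log2 fold change was 2.86 with a standard error of 0.39 and passed adjustment (edgeR, adjusted p = 0.0331). Without luteolin replicate 2 it was 2.59 and stayed under the threshold (adjusted p = 0.0285 in edgeR). The call was lost when control replicate 1, 2 or 3 or luteolin replicate 1 was left out (adjusted p = 0.158, 0.213, 0.145 and 0.124 in edgeR), and in each of these settings 0 genes of the whole table were called, with 1907 to 2462 at an unadjusted p under 0.05.

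Prf1, which encodes the pore-forming protein, had 1.23, 3.26 and 2.54 CPM in the control libraries and 9.98, 19.4 and 12.9 CPM in the luteolin libraries. Again no luteolin library fell within the control range, and the lowest was 3.06-fold above the highest control. The means were 14.1 ± 4.82 and 2.34 ± 1.03 CPM (SD, n = 3 each). The log2 fold change was 2.59 with a standard error of 0.46, and edgeR's adjusted p of 0.0521 missed 0.05. Without luteolin replicate 2 it was 2.31. Gzmb and Prf1 kept a similar proportion: the ratio of Gzmb to Prf1 CPM was 0.754 to 1.58 in the control libraries and 1.00 to 1.87 in the luteolin libraries, with overlap.

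The study also measured Gzmb by qRT-PCR, and the primer pair is shown because Gzmb has close copies.
Gzmb forward primer: gaagccaggagatgtgtgct
Gzmb reverse primer: gcacgtttggtctttgggtc
Both primers matched the Gzmb transcript exactly, 183 bp apart at their outer ends. The best site for the forward primer in Gzmc, Gzmd, Gzme and Gzmg had 2 mismatches and in Gzmf 4, and the best site for the reverse primer in these 5 genes had 5 to 9 mismatches.

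Gzma, the gene of the tryptase granzyme A, had 0.572, 1.14 and 2.36 CPM in the control libraries and 10.8, 28.0 and 5.91 CPM in the luteolin libraries. Its libraries did not overlap between groups, although the luteolin libraries spread widely (14.9 ± 11.6 against 1.36 ± 0.911 CPM, SD, n = 3 each). The log2 fold change was 3.46 with a standard error of 0.77 (edgeR, adjusted p = 0.0815). It fell to 2.64 without luteolin replicate 2, with the study's threshold still reached.

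Gzmk differed from the rest. It had 0.515, 1.05 and 0.636 CPM in the control libraries and 0.147, 2.32 and 1.35 CPM in the luteolin libraries. Luteolin replicate 1, at 9 counts, was the lowest of all 6 libraries and luteolin replicates 2 and 3 were the highest. The log2 fold change was 0.79 with a standard error of 0.91 (edgeR, adjusted p = 0.688). Leaving out luteolin replicate 2 gave 0.05, and leaving out luteolin replicate 1 gave 1.32. limma's voom with sample quality weights gave -1.72, the opposite direction, so no direction can be given for Gzmk.

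The other granzymes of the chromosome 14 cluster were low in the control libraries, from 0.172 to 2.05 CPM, and spread widely in the luteolin libraries. Gzmc had 12, 45 and 34 counts in control replicates 1, 2 and 3, which is 0.172 to 0.695 CPM, and 3.53, 17.7 and 2.75 CPM in the luteolin libraries. Gzmd had 0.927 to 1.43 CPM in the control libraries and 3.90, 20.3 and 5.13 CPM in the luteolin libraries. Both were thus above the control range in each luteolin library, with luteolin replicate 2 the highest by 3.96-fold or more. Gzmf had 0.515 to 0.884 CPM in the control libraries and 1.81, 9.71 and 4.43 CPM in the luteolin libraries. Gzmg had 0.458 to 1.24 CPM in the control libraries and 1.55, 29.9 and 6.65 CPM in the luteolin libraries. The gap between the groups was narrow for Gzmg, whose lowest luteolin library was 1.25-fold above the highest control, and luteolin replicate 2 was 19.3-fold above luteolin replicate 1. Gzme, with 1.09, 1.24 and 2.05 CPM in the control libraries and 1.93, 10.2 and 3.51 CPM in the luteolin libraries, was the member of this group whose libraries overlapped, as luteolin replicate 1 lay under control replicate 3.

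The log2 fold changes were 4.10 for Gzmc, 3.07 for Gzmd, 1.84 for Gzme, 2.90 for Gzmf and 4.04 for Gzmg, with standard errors of 0.95, 0.71, 0.68, 0.68 and 1.09. All 5 reached the study's threshold and none an adjusted p under 0.05 in edgeR's test (0.0857 to 0.195). Luteolin replicate 2 carried much of their size. Without it the log2 fold changes were 2.78, 1.97, 0.92, 2.15 and 2.43 in the same order, and Gzme no longer reached the threshold (unadjusted p = 0.0980 in edgeR). Reads of close copies can be hard to assign, and whether any were misassigned here was not tested. Of the 50-base windows of the Gzmd, Gzme, Gzmf and Gzmg transcripts, 19.4% to 21.9% occurred exactly in a transcript of another gene, mostly of the same cluster, and 4.14% of those of Gzmc did. At 150 bases, the read length, 0.649% of the Gzmf windows were shared, as were 0 windows of the other 8 genes, Gzma, Gzmb, Gzmk and Prf1 included.

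**Figure D2:**
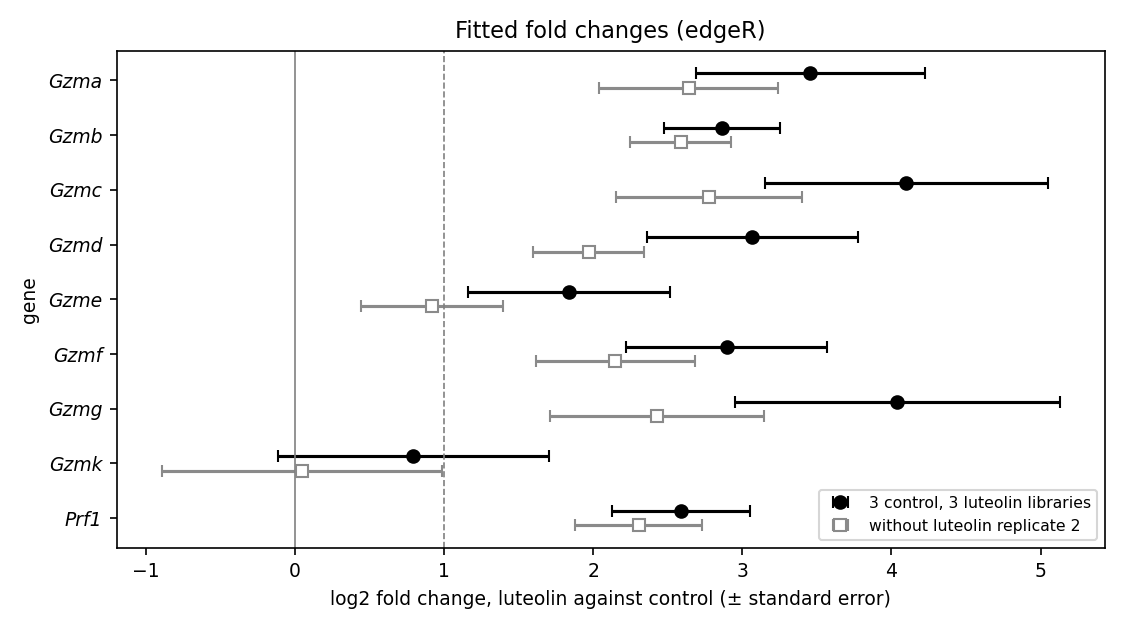
Log2 fold change of each gene, luteolin against control, with its standard error, for all 6 libraries (black circles) and without luteolin replicate 2 (open squares). The dashed line marks a log2 fold change of 1. Without that library Gzmb went from 2.86 to 2.59 and Gzmg from 4.04 to 2.43.

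Levels were compared between genes as CPM per kb of annotated exon. In the control group Gzmb was the most abundant of the 9 with 1.86 ± 0.589 CPM per kb, followed by Gzme with 1.59 ± 0.564, Gzma with 1.35 ± 0.906 and Gzmd with 1.21 ± 0.260 (SD, n = 3 each). Prf1, Gzmg, Gzmf, Gzmk and Gzmc lay between 0.907 and 0.520. Neighbours in this order differed by less than the larger of their SDs, except Gzmf and Gzmk. In the luteolin group Gzma (14.8 ± 11.6 CPM per kb), Gzmg (13.98 ± 16.7) and Gzmb (13.5 ± 4.81) led, then came Gzmd, Gzmc, Gzmf, Gzme and Prf1 from 10.2 to 5.45, and Gzmk was last with 0.915 ± 0.784. There the step from Prf1 to Gzmk was the only one larger than the SDs. The order at the top rests on luteolin replicate 2, where Gzmg had 32.9, Gzma 27.9 and Gzmb 18.6 CPM per kb. In luteolin replicates 1 and 3 Gzmb came first with 13.01 and 9.0 CPM per kb, where Gzma had 10.7 and 5.88 and Gzmg 1.71 and 7.32.

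The make-up of the 9 transcripts, as shares of their summed CPM per kb, varied among libraries. The shares of Gzmb and Gzmg spread most in the luteolin libraries (SD 9.61 and 9.03 percentage points, against 1.53 and 1.78 in the control libraries), while those of Gzmd, Gzme, Gzmk and Prf1 spread less there than in the control libraries. Gzmb was the first of the 9 in each control library and in luteolin replicates 1 and 3, with 18.1% to 21.2% of the sum in the control libraries and 31.4% and 19.9% in these. In luteolin replicate 2 it was the fifth with 12.3%, and Gzmg was first with 21.8%. Gzmc to Gzmg together made up 48.5% to 56.7% in the control libraries and 33.2%, 63.2% and 53.9% in luteolin replicates 1, 2 and 3. For Gzme and Gzmk, the share in every luteolin library was below that in every control library. Gzme had 14.3% to 18.5% in the control libraries and 5.08% to 8.47% in the luteolin libraries, and Gzmk had 3.54% to 8.01% and 0.255% to 2.14%. Shares sum to 100, so a lower share can go with a higher level, as it did for Gzme.

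**Figure D3:**
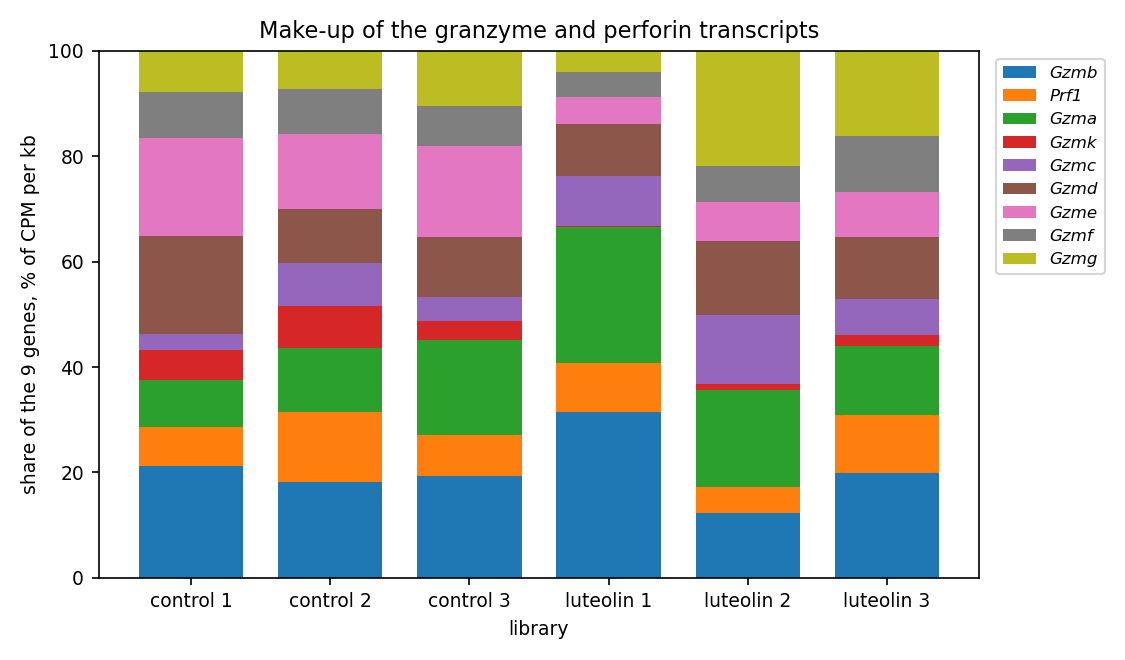
Share of each gene in the summed CPM per kb of the 9 genes, in percent, for each library. Luteolin replicate 1 had the largest Gzmb share (31.4%) and luteolin replicate 2 the largest Gzmg share (21.8%). The share of Gzmk (red) was 3.54% or more in the control libraries and 2.14% or less in the luteolin libraries, while its mean level was not lower.

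To compare the members with the amount of T-cell RNA, Gzma, Gzmb, Gzmk and Prf1 were divided by the mean CPM of 8 T-cell markers of the same library. The log2 ratio of Gzmb was 0.36, 0.65 and 1.26 in the control libraries and 2.03, 1.37 and 1.21 in luteolin replicates 1, 2 and 3. The groups overlapped, and the difference of 0.78 in the means was not separated from 0 (exact two-sided permutation test, p = 0.2, where 0.1 is the smallest p that 3 against 3 libraries allow). The ratio of Prf1 differed by 0.57 and that of Gzma by 1.32 on the log2 scale, each with p = 0.2 in the same exact permutation test. The ratio of Gzmk went the other way, although no direction could be given for its level. The T-cell markers themselves were higher in the luteolin group (median log2 fold change 2.21), as were Cd8a and Cd8b1 (2.32). A gene whose level does not change therefore falls in these ratios. The log2 ratio of Gzmk was -1.56, -0.58 and -1.24 in the control libraries and -4.96, -2.16 and -2.06 in the luteolin libraries, lower in each luteolin library (difference -1.93, exact permutation p = 0.1). Without luteolin replicate 1, where Gzmk had 9 counts, the difference was -0.98. Relative to Cd8a and Cd8b1, which encode the CD8 coreceptor, the differences were 0.42 for Gzmb, 0.22 for Prf1, 0.97 for Gzma and -2.29 for Gzmk, with exact permutation p values of 0.5, 0.7, 0.4 and 0.1. Relative to 4 markers of all leukocytes, Gzmb, Prf1 and Gzma were higher in each luteolin library, by 1.67, 1.46 and 2.21 on the log2 scale (exact permutation p = 0.1 for each). Gzmk differed by -1.04 with overlap (exact permutation p = 0.6). Relative to the NK-cell markers, Gzma and Prf1 were higher in each luteolin library, by 1.96 and 1.21 (exact permutation p = 0.1 for each), while Gzmb (1.42) and Gzmk (-1.29) overlapped between groups (exact permutation p = 0.2 and 0.6). The libraries of Gzmb, Prf1 and Gzma overlapped between groups relative to the T-cell markers, and those of Gzmb also relative to the NK-cell markers. These ratios do not tell more cells of a type from more RNA per cell.

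**Figure D4:**
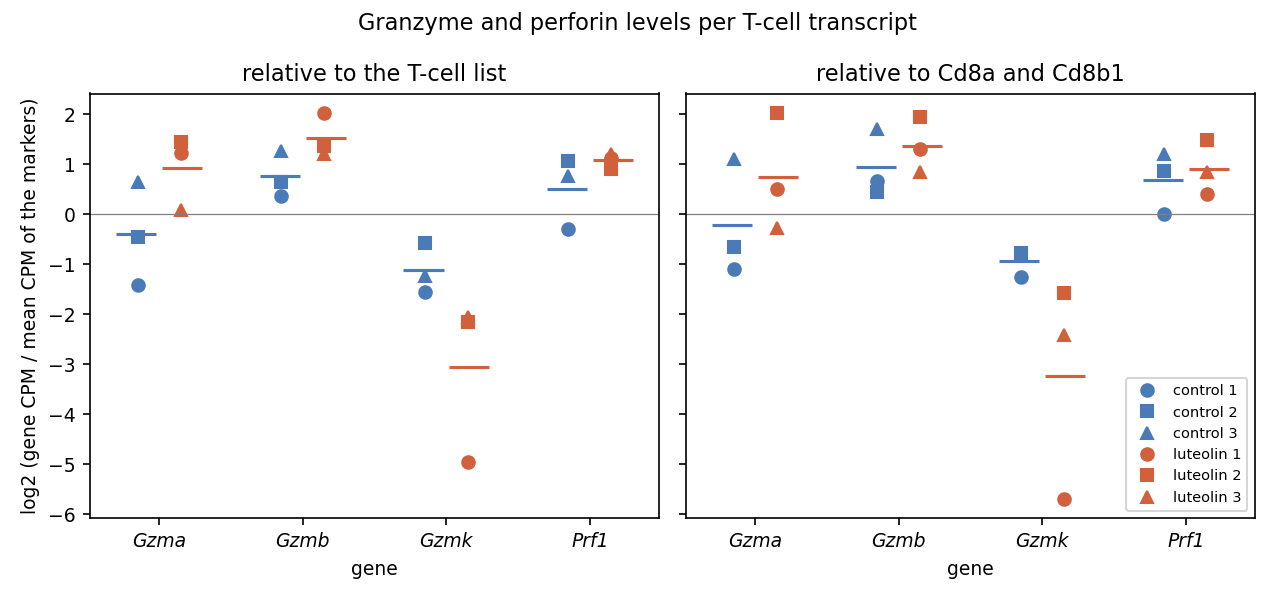
Log2 ratio of each gene's CPM to the mean CPM of 8 T-cell markers (left) and of Cd8a and Cd8b1 (right), per library, with a bar at each group mean (n = 3). The groups overlapped for Gzma, Gzmb and Prf1, and the luteolin libraries of Gzmk lay below its control libraries in both panels. The markers themselves were higher in the luteolin group.

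Genes with the most similar pattern over the 6 libraries were sought for these 4 members by the root mean square difference of log2 CPM after centring, which describes these 6 libraries only. Among the nearest to Prf1 were Il18r1, a chain of the IL-18 receptor, and Apol6, with differences of 0.20 and 0.24. Nearest to Gzmb were Antxr1, an anthrax toxin receptor, Hsd11b1, a glucocorticoid-activating enzyme, and Cyfip2, with 0.15 to 0.22. For Gzma the nearest were Cadm3, Masp1, a protease of the complement lectin pathway, and Qpct, with 0.15 to 0.35. Gzmk had no gene as near, its first being Pars2, Adrb1 and Fam222a with 0.41 to 0.43. Among the members, Gzmd and Gzmf (0.37) and Gzmb and Prf1 (0.43) were the closest pairs, and the pairs of Gzmk with the others differed by 1.00 to 2.03.

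Granule genes other than the 9 moved to different extents. Gzmm, a granzyme of NK cells outside the cluster, had 1.49 to 2.75 CPM in the control libraries and 1.39 to 1.99 CPM in the luteolin libraries, and its log2 fold change of -0.47 did not reach the threshold (unadjusted p = 0.309 in edgeR). Gzmn was at 0 counts in all libraries. Of all genes tested, 11.3% were higher at the study's threshold (7.52% without luteolin replicate 2) and 1.52% lower. Of 9 genes for granule contents and granzyme processing, 6 were higher (5 without that library) and 0 lower, with a median log2 fold change of 1.36. Ctsc, which encodes the dipeptidase that activates granzymes, had 392 ± 32.3 CPM against 188 ± 35.8 CPM (SD over 3 libraries each), a log2 difference of 1.06 (edgeR, adjusted p = 0.0476). Nkg7, a granule membrane protein, and the cathepsin gene Ctsh had log2 fold changes of 2.73 and 1.497. Of 13 genes of granule docking and release, 4 were higher (2 without luteolin replicate 2) and 0 lower, with a median of 0.77 and Stxbp2 (1.54), Was (1.10) and Dock2 (0.99) at the smallest p values.

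Genes that restrain or receive granzymes split. Of 8 genes, 3 were higher and 2 lower at the study's threshold (all genes, 11.3% and 1.52%), and the median log2 fold change was -0.09. Serpina3g, a serine protease inhibitor, and Igf2r, the mannose 6-phosphate receptor that can bind granzyme B, were higher with log2 fold changes of 1.84 and 1.28 (adjusted p = 0.0331 and 0.0437 in edgeR), and Serpina3n had 2.82. The 2 lower genes, named after their values were seen, were Serpinb9 and Serpinb9b, of the serpin family that holds the intracellular inhibitor of granzyme B. Serpinb9 had 58.4, 118 and 178 CPM in the control libraries and 54.8, 32.1 and 59.2 CPM in the luteolin libraries. Luteolin replicate 3 was above control replicate 1, so these groups overlapped, and the log2 fold change was -1.28 (adjusted p = 0.168 in edgeR). Serpinb9b had 14.4, 30.3 and 43.4 CPM in the control libraries and 11.9, 7.92 and 10.5 CPM in the luteolin libraries, with no overlap and a log2 fold change of -1.54 (adjusted p = 0.114 in edgeR). Serpinb6b, also named after its values were seen, was below its control libraries in each luteolin library without reaching the threshold (log2 fold change -0.90). Of 14 substrate genes, 2 were higher (1 without luteolin replicate 2) and 0 lower. That is near the share of all genes that were higher (11.3%, and 7.52% without that library). Anp32a, with a log2 fold change of 1.14, was among the 2, and the median of the 14 was -0.04. Bid, a granzyme B substrate also named after its values were seen, had a log2 fold change of -0.30.

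Upstream genes were mostly higher. At the study's threshold 11.3% of all genes tested were higher (7.52% without luteolin replicate 2) and 1.52% lower. Of 12 transcription factor genes, 9 were higher (8 without that library) and 0 lower, with a median of 1.41. The smallest p values were those of Bhlhe40 (log2 fold change 1.29), Id2 (1.68) and Prdm1, which encodes BLIMP-1 (1.76), while other genes of the list had larger fold changes. edgeR's adjusted p was 0.0331, 0.0331 and 0.0437 for these 3. The 1 factor gene whose luteolin libraries all lay below its control libraries was Eomes, named after its values were seen, with 70.2 to 92.3 CPM in the control libraries and 36.1 to 51.3 CPM in the luteolin libraries. Of 14 tested cytokine and receptor genes that induce granzymes, 11 were higher and 0 lower (median 2.20), among them Il18r1 (2.49) and Il2ra (2.22). Without luteolin replicate 2, 12 of 15 were higher. Il2rg (0.95) had a fold change under 2 and so was not counted as higher. Il2 itself was at 0 counts in all libraries. All 5 listed genes for ligands of the tumour necrosis factor family were higher (4 without luteolin replicate 2), with Tnf at 2.42, Tnfsf10 at 1.85 and Ltb at 1.89. For 4 of these 5 each luteolin library lay above each control library (all genes, 15.9%). The exception was Lta, named after its values were seen. It had 0.093 to 0.293 CPM in the control libraries and 0.767, 2.17 and 0.203 CPM in the luteolin libraries.

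**Figure D5:**
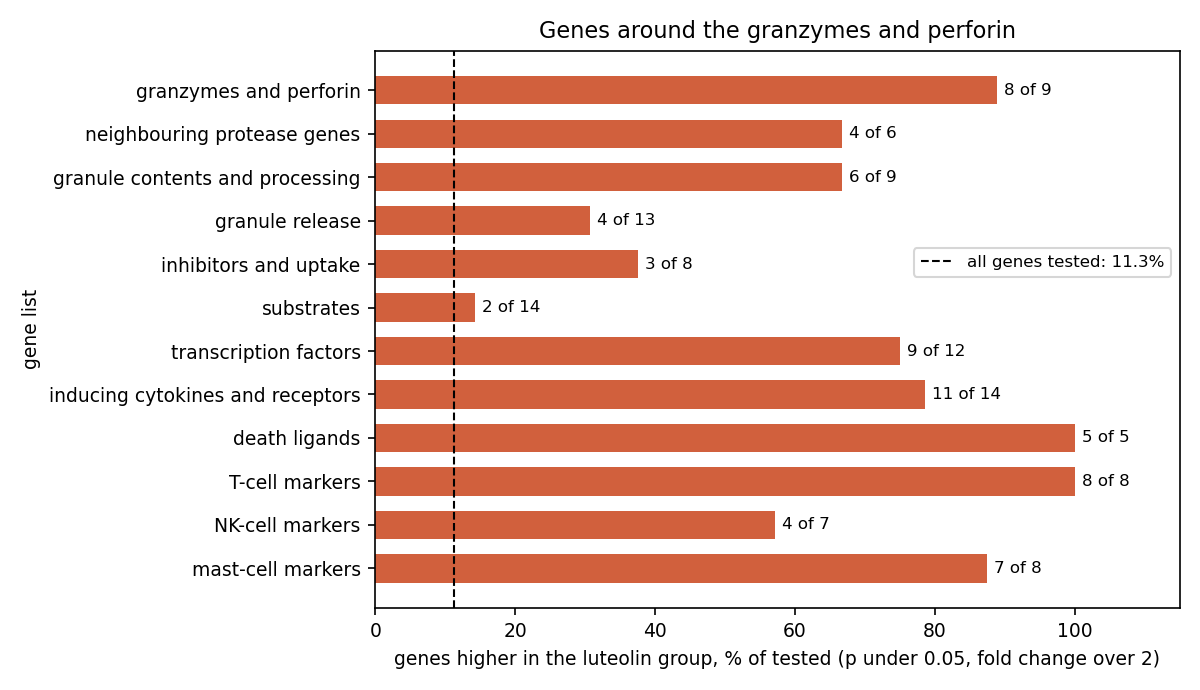
Percentage of the tested genes of each list that were higher in the luteolin group at an unadjusted p under 0.05 and a fold change over 2, with counts beside the bars and the share of all tested genes (11.3%) as a dashed line. The share was 8 of 9 for the granzymes and perforin and 2 of 14 for their substrates.

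Markers of the cells that can hold granzymes were mostly higher in the luteolin group too, but not always with the same order of libraries as the members. The 8 T-cell markers were all higher at the study's threshold, where 11.3% of all genes were (7.52% without luteolin replicate 2). Their summed level was 12.0 to 12.5 CPM in the control libraries and 36.6 to 82.7 CPM in the luteolin libraries. Cd8a and Cd8b1 summed to 2.20 to 3.60 CPM in the control libraries and to 15.1, 13.8 and 14.4 CPM in the luteolin libraries, which lay close together. The 2 genes differed in order. In luteolin replicate 2 Cd8a was the lowest of the luteolin libraries (11.3, 9.43 and 10.6 CPM) and Cd8b1 the highest (3.82, 4.39 and 3.82 CPM). Of the 7 tested NK-cell markers 4 were higher, with sums of 3.48 to 14.9 CPM in the control libraries and 22.6, 18.5 and 23.9 CPM in the luteolin libraries. By this sum luteolin replicate 2 was again the lowest of the luteolin libraries, but the gap rests largely on Klra4. That gene had 5.88, 1.54 and 6.15 CPM in the luteolin libraries and a log2 fold change of -0.02. Of the other tested markers, Klrb1c, Klrc1, Klre1 and Klrk1 were also lowest in luteolin replicate 2 among the luteolin libraries. Ncr1 and Klri2 were highest there, so the NK-cell markers did not share an order. Klra8 was at 0 counts in all libraries. Of 8 mast-cell markers 7 were higher, with sums of 10.1 to 19.04 and 44.3 to 122 CPM. The markers of CD4+ and regulatory T cells summed to 7.44 to 12.4 and 23.1 to 51.3 CPM, with 4 of 4 tested genes higher (3 without luteolin replicate 2). Of 4 leukocyte markers 3 were higher (1 without luteolin replicate 2), with sums of 174 to 224 and 384 to 519 CPM. Of 2 tested gamma-delta T-cell markers 0 reached the threshold in either direction.

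Among the neighbours of the granzyme cluster, 4 of 6 tested protease genes were higher and 0 lower (all genes, 11.3% and 1.52%), with a median log2 fold change of 2.51. Mcpt1, Mcpt4 and Cma1, mast-cell proteases, had log2 fold changes of 2.65, 3.06 and 2.98. Their libraries did not share 1 order with the granzymes. Mcpt4 and Cma1 were highest in luteolin replicate 2, with 28.0 and 22.9 CPM, whereas Mcpt1 had 24.1, 7.10 and 18.5 CPM in the luteolin libraries, so that replicate 2 was the lowest of the 3. Mcpt8, a basophil protease gene named after its values were seen, had 5.05 to 6.25 CPM in the control libraries and 3.58 to 8.33 CPM in the luteolin libraries. Mcpt9 was at 0 counts in all libraries. The part that T cells, NK cells, mast cells or basophils have in the granzyme levels was not tested.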

How the data were processed

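The 6 tumour RNA-seq libraries, 3 for each group, were all used, and the table held 0 other columns. The authors deposited estimated counts per gene symbol and library, whole numbers not scaled between libraries. The submitters' processing notes list HISAT2, StringTie and DESeq2, and the builds mm39 and rn6, without their roles. The annotation, the counting settings and the use of strand are not given in the sources used here, and the labels and the study's methods name different RNA and library kits. Positions are of GRCm38 (GENCODE M21), promoters are of RefSeq GRCm38.p6 (9 of 9 symbols matched).

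Counts were rounded and compared with edgeR 4.0.16 in R 4.3.3 (TMM normalization, filterByExpr, quasi-likelihood test, no covariates, two-sided), with Benjamini-Hochberg adjustment over all 14963 genes tested. CPM values use the TMM-normalized totals, and log2 CPM a prior count of 2. The alternatives were DESeq2 1.42.0, voom of limma 3.58.1 with sample quality weights, RLE and upper-quartile normalization, no filter, at least 10 counts in every library, values divided by 4, the replicate number fitted as a block, and omission of each library in turn. At the depth of these libraries 1 count was worth 0.0120 to 0.0163 CPM. Ratios to cell markers were tested by an exact permutation test (scipy 1.17.1). Alignments were made with Biopython 1.88. The pipeline was tested on simulated data.

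The members and gene lists were chosen with earlier results of these data known, so no p value was adjusted over a list alone. The genes named are the 9 members, Gzmm and Gzmn, the 3 genes with the smallest p of each list of the pathway, and the 3 genes nearest in pattern to each of Gzma, Gzmb, Gzmk and Prf1, of which a few are not reported here. Of 9 T-cell markers 8 were in the table. The lists for plasmacytoid dendritic cells, macrophages, neutrophils, B and plasma cells and basophils had 3 of 5, 1 of 7, 4 of 6, 4 of 6 and 2 of 4 tested genes higher at the study's threshold (all genes, 11.3%).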

Additional observations from a re-analysis of the deposited data

How the results depend on the processing

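The number of members higher at the study's threshold stayed between 6 (voom) and 8 over the 14 alternatives, and 7 to 8 with a library left out. Of all genes tested, 7.52% to 13.6% were higher at that threshold over these alternatives. The number at an adjusted p under 0.05 was 1 with all libraries in edgeR (all genes, 1.34%). It was 7 with DESeq2, all but Gzme and Gzmk (all genes, 9.59%), and 5 with voom, which called 1886 of 14963 genes higher. It was 2 (Gzmb and Prf1) with RLE normalization, upper-quartile normalization, at least 10 counts in every library and values divided by 4. In that order these settings called 210, 224, 345 and 327 genes higher, of 14963, 14963, 13571 and 13580 tested. The number of members ranged from 0 to 1 with a library left out, where 0 to 276 genes of the whole table were called higher. With the replicate number as a block it was 0, with 7 members at an unadjusted p under 0.05 in edgeR, and 34 genes of the whole table were then called higher. The same-numbered libraries did not deviate together (correlations of -0.196, -0.092 and 0.063 over genes), so the replicate block shares only a number and its result is not read as a weaker effect.

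Gzmk, at 0.79 with all libraries, was the 1 fold change that reversed, at -1.72 with voom and sample quality weights. Gzmb kept a log2 fold change of 2.59 to 3.14 and Prf1 of 1.93 to 2.87 over all alternatives. Those of Gzmc, from 2.63 to 4.45, and Gzmg, from 1.91 to 4.56, varied most among the called members. The 4 ratios per T-cell transcript kept their direction with the CD8+ T-cell, leukocyte and NK-cell lists and with each library left out. Gzmk had no value with at least 10 counts in every library, since luteolin replicate 1 had 9. Depth limits Gzmc and Gzmk, whose lowest libraries held 12 and 9 counts.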
